A study of Arabidopsis thaliana with 12 samples.

Results

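The 43 probes described here were the brightest probes on the array that stand for a single named gene, both in Arabidopsis thaliana kept in PSI light, which mainly excites photosystem I, and in plants that also received DCMU, an inhibitor of photosynthetic electron transport. Probes were ranked by intensity within each array column, and a probe was taken when its median rank was at least 88% of the way up the list in both groups. Of 3439 probes, 290 met this condition, of which 57 had several genes in the probe annotation, 184 had none and 49 had 1 gene. Among these 49, the genes PSAN, PSBW, PSB27, LHB1B2, NdhS and AT1G74470 were left out by name, which leaves 43 probes for 43 genes out of the 692 single-gene probes. The genes were thus chosen by their measured levels in both groups, which are given as a description and are not tested. A probe's brightness also depends on its length and labelling, so a high rank is a rank of signal and not a count of transcripts.

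All 12 samples were total RNA of wild-type plants of the ecotype C24, 6 of them grown in PSI light and 6 grown in PSI light and treated with DCMU. The sources used here do not state the tissue, the plants' age, or the dose and duration of DCMU. Within each group, columns 1 and 2, 3 and 4, and 5 and 6 were far closer to each other than to other columns (Spearman correlation of 0.976 to 0.991, against 0.921 to 0.960) and were averaged as duplicates. This leaves n = 3 duplicate means per group. The labels do not say whether duplicate pairs are separate plants or extracts, and the p-values may therefore reflect technical spread alone. The deposited values are relative intensities, with the brightest probe of each column at 100. The median of a column lay between 0.542 and 0.584 in PSI light, and between 0.386 and 0.504 when DCMU was given.

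Oxygenic photosynthesis moves electrons from photosystem II through the plastoquinone pool and the cytochrome b6f complex to photosystem I. DCMU occupies the plastoquinone site of photosystem II and blocks electron transfer at that point, and PSI light drives photosystem I in preference to photosystem II. The redox state of the plastoquinone pool is a known signal to plastid and nuclear gene expression, and the comparison asks which transcripts differ when electron supply from photosystem II is inhibited. Genes with strong signals in green tissue usually include those for photosynthetic proteins. Of 71 listed nuclear genes for photosystem, antenna, electron transport and Calvin cycle proteins, 7 had a single-gene probe, and 4 of these (PSAN, PSBW, PSB27 and LHB1B2) passed the rank threshold but belong to the genes left out by name. None of the 5 root, 5 senescence and darkness, and 2 phloem genes listed had a single-gene probe, so signal from those sources could not be examined.

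**Figure D1:**
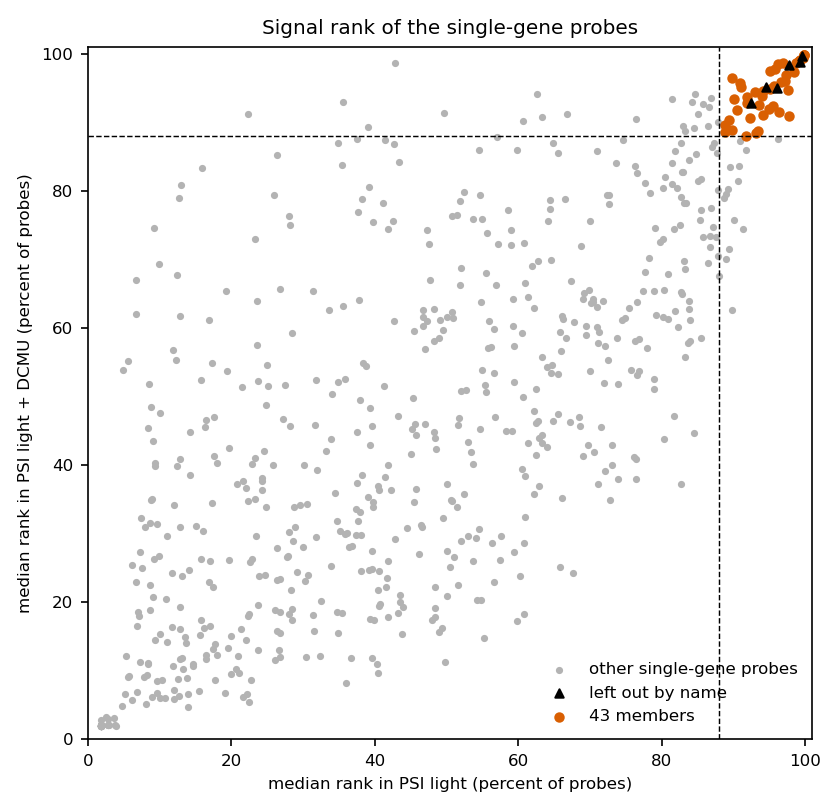
Median signal rank of each of the 692 single-gene probes in PSI light (x axis) and in PSI light with DCMU (y axis), in percent of the 3439 probes, with dashed lines at the 88% threshold. The 43 members fill the upper right corner, and the 6 black triangles are the genes left out by name.

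Many, but not all, single-gene probes past the rank threshold in 1 group also passed it in the other. These ranks chose the 43 genes, so the counts are a description only. Apart from the genes left out by name, 58 single-gene probes passed the rank threshold in PSI light and 65 with DCMU, with 43 in both, 15 only in PSI light and 22 only with DCMU. These 43 probes make up 1.25% of the array and took between 7.19% and 8.84% of each column's summed intensity in PSI light and between 8.33% and 8.57% with DCMU, so that the groups overlapped. The 2 highest shares in PSI light were both in the duplicate columns 3 and 4. A small top group carried much of this signal, since AT3G09850, AT4G31530 and AT2G27290 alone took between 3.01% and 4.57% of the total in PSI light and between 3.96% and 4.34% with DCMU. In 12 of the 43 genes at least 1 of the 12 columns fell below the rank threshold.

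The 3 brightest genes had median ranks of 99.8% to 99.9% in both groups. AT3G09850, for a protein with a G-patch domain, a motif common in proteins that handle RNA, had deposited relative intensities of 36.9 to 47.0 in the 6 PSI light columns (median 42.0) and of 62.4 to 80.6 in the 6 DCMU columns (median 64.6). Its deposited values were thus higher in every DCMU column than in any PSI light column. AT4G31530, for a protein of the NAD(P)-binding Rossmann-fold type, had deposited values of 27.8 to 60.5 in PSI light (median 46.8) and of 35.7 to 45.6 with DCMU (median 43.0). AT2G27290 had deposited values of 39.7 to 73.6 in PSI light (median 43.2) and of 27.8 to 45.7 with DCMU (median 37.5). For these last 2 genes the groups overlapped, neither passed the test (adjusted p = 0.183 and 0.131), and the highest PSI light values of both lay in columns 3 and 4.

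All tested changes were computed after quantile normalisation between columns, on the log2 scale. At the very top of the list this step gives a probe the mean intensity of its rank, so AT3G09850, whose rank hardly moved, differed with DCMU by only 0.32 on the log2 scale (SE 0.16, adjusted p = 0.173, limma). With no scaling its log2 fold change was 0.71 (adjusted p = 0.00663), with equal column totals 0.80 (adjusted p = 0.00698) and with median centring 1.06 (adjusted p = 0.0145), all past the threshold of 0.05. Cyclic loess gave 0.30 (adjusted p = 0.0797). With quantile normalisation kept, AT3G09850 passed when all 12 columns were taken as samples (adjusted p = 0.02095). It also passed over 12 columns with duplicates as a random block (0.0274) or the replicate number as a block (0.0272). The call for the brightest single-gene probe therefore depended on the scaling and on how duplicate columns were counted. The brightest probe, which defines 100 in the deposited values, was also not the same throughout (4141 for PSI light columns 1 to 4, 1431 for the other 8).

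AT4G17070, for a protein of the peptidyl-prolyl isomerase type, had normalised log2 levels of 4.72, 4.55 and 4.13 in PSI light and 4.52, 4.07 and 3.85 with DCMU. CCL (CCR-like), whose unstable mRNA is known to be under circadian control, stood at 3.69, 4.61 and 2.92 in PSI light and at 3.54, 3.56 and 3.22 with DCMU. The spread of CCL in PSI light was the widest of the 43 genes, with an SD of 0.85 (n = 3) against 0.19 with DCMU. AT1G62250 stood at 3.65, 3.63 and 3.49 in PSI light and at 3.42, 3.30 and 3.70 with DCMU. CUTA, for a chloroplast protein known to bind copper, stood at 3.02, 3.15 and 3.25 in PSI light and at 2.96, 3.04 and 3.20 with DCMU. The groups overlapped for each of these 4 genes, and the 95% interval of the log2 fold change was -0.31 to 0.17 for CUTA and -1.48 to 0.89 for CCL.

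AT2G33180 was brighter in PSI light in every duplicate mean, at 2.85, 3.06 and 2.52, against 2.27, 2.44 and 2.33 with DCMU, but its log2 fold change of -0.46 (SE 0.15) did not pass (adjusted p = 0.0661). AT4G31470, for a protein of the CAP superfamily to which pathogenesis-related protein PR-1 belongs, stood at 2.34, 1.81 and 2.53 in PSI light and at 2.12, 2.01 and 2.65 with DCMU, and the groups overlapped. AT3G09080 completed the 10 brightest genes and was the only one of the 10 that passed the test.

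**Figure D2:**
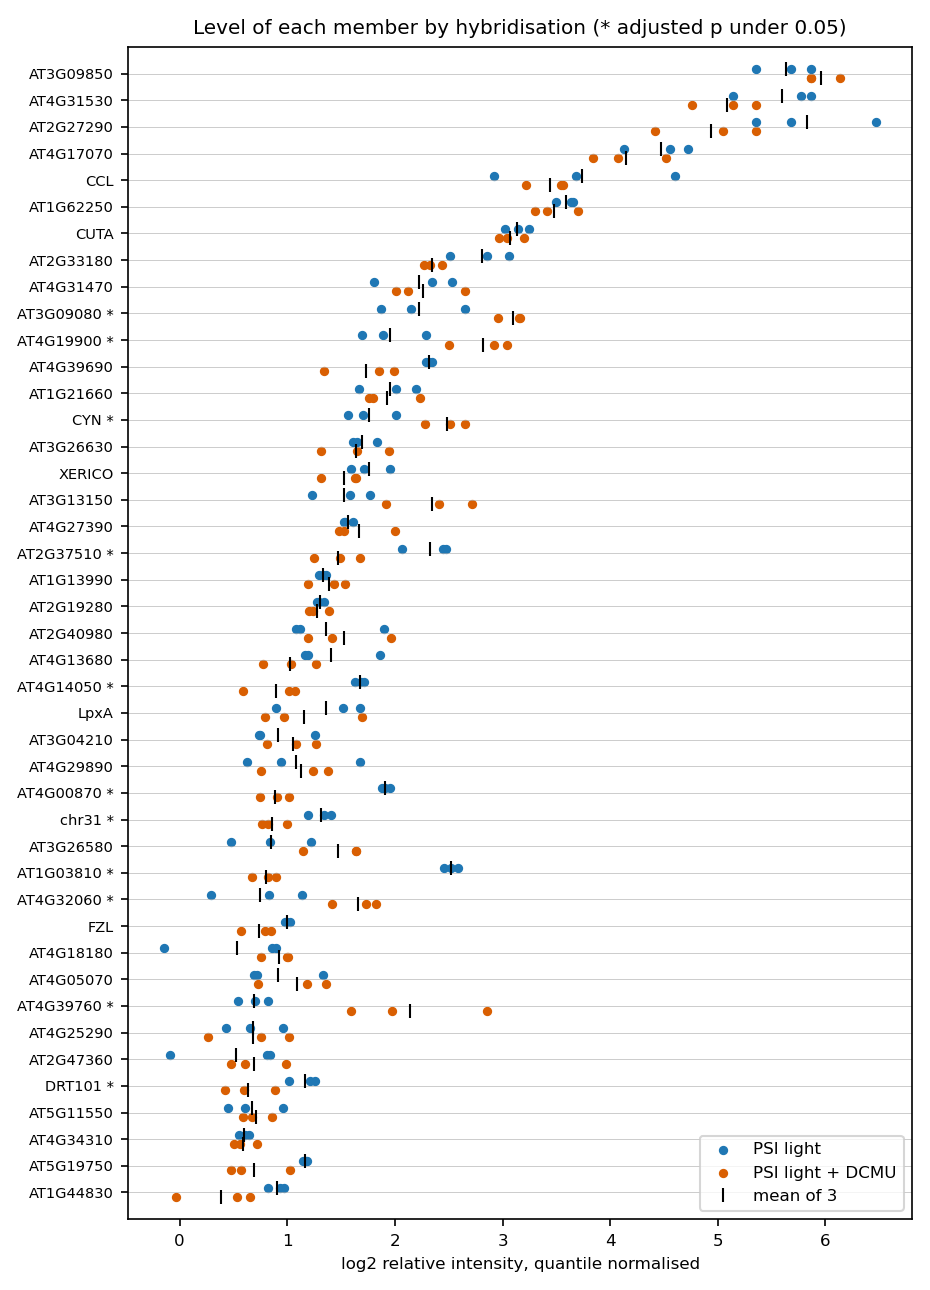
Normalised log2 relative intensity (x axis) of the 43 genes (y axis, ordered by the lower of their 2 median ranks), with 1 point per duplicate mean in PSI light (blue) and PSI light with DCMU (orange) and a black tick at the mean of 3. Group means run from 5.96 for AT3G09850 down to 0.38 for AT1G44830, both with DCMU, and stars mark the 11 genes that passed the test.

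Of the 43 genes, 5 rose with DCMU (11.6%), 6 fell (14.0%) and 32 did not pass limma's test, so that 25.6% were called. Over all 3439 probes 43.1% passed, 18.1% higher and 25.0% lower with DCMU, and over the 692 single-gene probes 43.6% passed (18.9% higher, 24.7% lower). The 241 equally bright probes with several genes or none are the closest comparison, and 27.4% of them passed (5.81% higher, 21.6% lower). The rule asked for a high level in both groups and so bears on this contrast, and nothing is read from the lower share. The median log2 fold change was -0.03 for the 43 genes, -0.10 for the other bright probes and -0.06 for all probes, and the median absolute log2 fold change was 0.32, 0.36 and 0.51. Duplicate means of the groups did not overlap for 17 of the 43 genes (39.5%), against 55.3% of all probes, 55.5% of single-gene probes and 41.1% of the other bright probes. A change past the threshold and over 2-fold was found in 3 genes (6.98%), AT4G39760, AT1G03810 and AT4G00870, against 19.3% of all probes, 19.4% of single-gene probes and 8.3% of the other bright probes.

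The division into higher and lower moved with the scaling. Against 5 higher and 6 lower after quantile normalisation, there were 5 and 11 with no scaling and 6 and 7 with equal column totals. There were 8 and 4 with median centring and 7 and 4 with cyclic loess. A correction for position in the order of probe numbers, called the position correction here, gave 9 and 7. It used no coordinates on the array. Over all 3439 probes the counts moved too, from 624 higher and 859 lower after quantile normalisation to 425 and 1172 with no scaling and 474 and 1058 with equal totals. They were 673 and 781 with median centring, 774 and 794 with cyclic loess, and 836 and 769 after the position correction. Median centring put the median log2 fold change of the 43 genes at 0.24, and no scaling put it at -0.11, against medians over all probes of 0.00 and -0.32 in these settings.

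**Figure D3:**
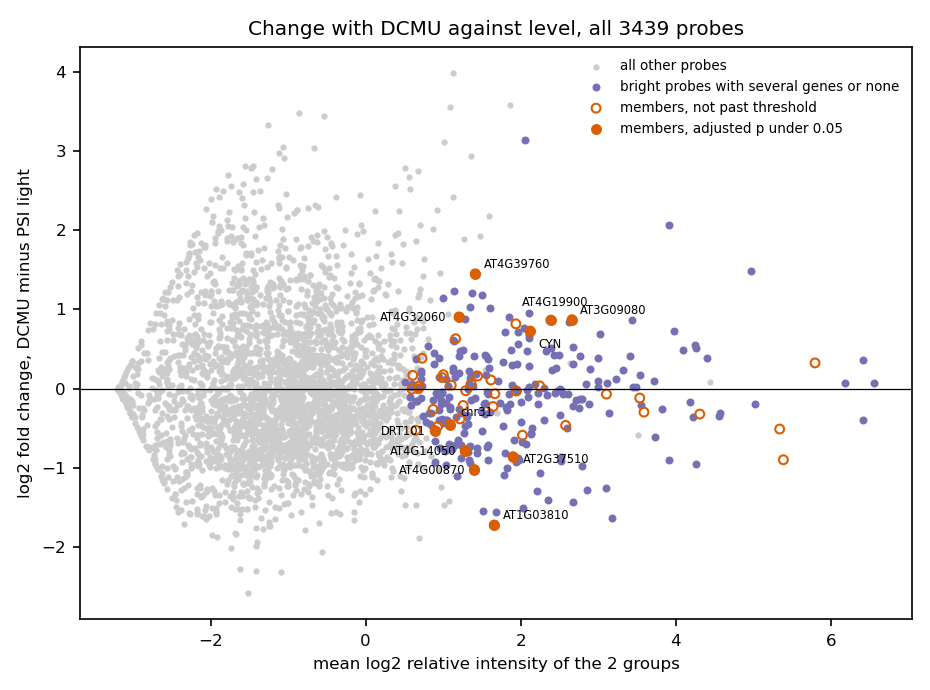
Log2 fold change with DCMU (y axis) against the mean normalised log2 relative intensity of the groups (x axis) for all 3439 probes. Members are orange (filled where adjusted p was under 0.05, with names), other equally bright probes are purple and the rest grey, and the members lie between -1.72 and 1.45.

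Among the 5 genes that rose, AT4G39760, for a protein of the kelch-repeat F-box type, whose relatives recruit proteins for ubiquitination, stood at 0.55, 0.70 and 0.82 in PSI light and at 2.85, 1.97 and 1.59 with DCMU. It rose 2.73-fold (log2 1.45, SE 0.35, adjusted p = 0.0273), and the lowest DCMU value lay above the highest PSI light value. AT4G32060, for a protein of the family that controls calcium uptake by mitochondria, went from 0.75 ± 0.43 to 1.66 ± 0.21 (SD, n = 3), a rise of 0.90 on the log2 scale (SE 0.25, adjusted p = 0.0417). Its PSI light values were 1.14, 0.83 and 0.29, and its DCMU values 1.82, 1.73 and 1.41. These did not overlap either.

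AT3G09080, for a protein with WD40 repeats, stood at 1.87, 2.15 and 2.65 in PSI light and at 2.96, 3.17 and 3.16 with DCMU, and rose 1.83-fold (log2 0.87, SE 0.22, adjusted p = 0.0308). AT4G19900, for a protein of the glycosyltransferase type, stood at 1.88, 2.29 and 1.69 in PSI light and at 2.92, 3.04 and 2.50 with DCMU, and rose 1.82-fold (log2 0.86, adjusted p = 0.0316). CYN encodes cyanase, which breaks down cyanate with bicarbonate to ammonia and carbon dioxide. It stood at 1.56, 1.70 and 2.01 in PSI light and at 2.28, 2.65 and 2.51 with DCMU, and rose 1.65-fold (log2 0.73, SE 0.16, adjusted p = 0.0204). In all 3 genes every DCMU value lay above every PSI light value.

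None of these 5 genes passed in every setting tried. Without DCMU columns 3 and 4 none of the 5 passed (adjusted p = 0.0611 to 0.114, log2 0.64 to 1.53). AT3G09080 passed without PSI light columns 5 and 6 only, and was at 0.0597 to 0.0902 without each of the other pairs. AT4G32060 passed without PSI light columns 1 and 2 only, and was at 0.0580 to 0.117 without the others. AT4G19900 also lost its call without either pair of columns 1 and 2 or without PSI light columns 5 and 6 (0.0844 to 0.0934), and AT4G39760 without any 1 PSI light pair (0.0683 to 0.0812). CYN lost its call without PSI light columns 1 and 2 (0.0558) or 3 and 4 (0.0616), or without DCMU columns 5 and 6 (0.0625). AT4G32060 also missed the threshold with no scaling (log2 0.75, adjusted p = 0.0738). All 5 stayed higher with DCMU in each of the 19 alternatives.

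Among the 6 genes that fell, AT1G03810, for a protein with the OB-fold of nucleic acid binding, had the largest change of the 43 genes. It stood at 2.45, 2.58 and 2.52 in PSI light and at 0.89, 0.82 and 0.68 with DCMU, and fell 3.30-fold (log2 -1.72, SE 0.07, adjusted p = 0.000571), which took it from a median rank of 97.8% to 90.9%. AT4G00870 encodes a transcription factor of the bHLH type, a type that includes regulators of jasmonate responses. Its values were 1.91, 1.95 and 1.88 in PSI light and 1.02, 0.75 and 0.91 with DCMU, a 2.03-fold fall (log2 -1.02, SE 0.08, adjusted p = 0.00156). Both genes had narrow PSI light groups, with SDs of 0.07 and 0.04 (n = 3).

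AT2G37510, for a protein of the RNA-binding type, stood at 2.44, 2.48 and 2.06 in PSI light and at 1.67, 1.49 and 1.25 with DCMU, and fell 1.81-fold (log2 -0.86, adjusted p = 0.0145). AT4G14050, for a pentatricopeptide repeat protein, a family that binds organelle RNA, stood at 1.63, 1.69 and 1.71 in PSI light and at 1.02, 0.59 and 1.07 with DCMU, and fell 1.72-fold (log2 -0.78, adjusted p = 0.0124). For both, the highest DCMU value lay below the lowest PSI light value. AT4G14050 did not pass with median centring (log2 -0.59, adjusted p = 0.0627), while AT1G03810, AT4G00870 and AT2G37510 passed in all 19 alternatives, the only genes of the 43 to do so.

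The gene chr31 (chromatin remodeling 31) encodes a protein of the family that helps direct small RNA-guided DNA methylation. It stood at 1.35, 1.40 and 1.20 in PSI light and at 0.82, 0.998 and 0.77 with DCMU, and fell by 0.45 on the log2 scale (SE 0.09, adjusted p = 0.0154). DRT101, an enzyme of the phosphohexose mutase type first named for DNA damage tolerance, stood at 1.21, 1.02 and 1.26 in PSI light and at 0.88, 0.59 and 0.42 with DCMU, and fell by 0.53 (SE 0.14, adjusted p = 0.0379). Neither group pair overlapped. After the position correction chr31 was at -0.22 (adjusted p = 0.237) and DRT101 at -0.25 (adjusted p = 0.184), and neither passed with cyclic loess (0.0852 and 0.0877). Without PSI light columns 1 and 2, or DCMU columns 1 and 2, chr31 was at 0.0525 in each case, and DRT101 passed without DCMU columns 1 and 2 only (0.0539 to 0.106 without the others). Median centring also ended the call of DRT101 (0.0735).

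The probes of chr31 and AT4G39690 were numbered 4113 and 4112, next to each other, and probe 4114 was also bright. Their log2 fold changes were -0.45, -0.59 and -0.56. Of 54 probes whose number adjoined that of a member, 10 (18.5%) passed the rank threshold in both groups, against 8.43% of all probes. Probes 4112 and 4113 are both members and are each counted among these 10 as the other's neighbour. Part of that share therefore follows from the rule. The probe of AT4G39760, the gene with the largest rise, lay between probes 2445 and 2447, which were dim (lower median ranks of 22.9% and 7.30%) and had log2 fold changes of 1.28 and 1.498. Its own log2 fold change after the position correction was 1.26 (adjusted p = 0.00368). That correction uses a running median over a long run of probe numbers, so it cannot remove a rise shared by only a few adjoining probes. The corrected value therefore does not bear on signal shared with probes 2445 and 2447. Whether a strong neighbouring signal or a trend across the array contributes to the values of adjoining probes was not tested.

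Of the 32 genes that did not pass, 6 had groups that did not overlap and a 95% interval of the log2 fold change that excluded 0. AT3G13150, for a pentatricopeptide repeat protein, was higher with DCMU, at 1.23, 1.77 and 1.58 in PSI light and 2.71, 2.41 and 1.92 with DCMU (log2 0.82, adjusted p = 0.0557). AT4G39690, for a mitochondrial inner membrane protein of the MICOS complex, which shapes the cristae, was lower, at 2.34, 2.29 and 2.32 against 1.85, 1.99 and 1.34 (log2 -0.59, adjusted p = 0.0558). FZL, a dynamin-related protein of the chloroplast that shapes the thylakoids, differed by -0.26 on the log2 scale (adjusted p = 0.0619), with 1.03, 0.98 and 0.99 in PSI light and 0.79, 0.85 and 0.57 with DCMU. The others were AT2G33180, AT5G19750, for a protein of the Mpv17 and PMP22 family, and AT1G44830, for a transcription factor of the AP2/ERF type. AT5G19750 stood at 1.18, 1.14 and 1.17 in PSI light and at 1.02, 0.48 and 0.57 with DCMU (log2 fold change of -0.48, adjusted p = 0.0639). AT1G44830 stood at 0.82, 0.93 and 0.97 in PSI light and at -0.04, 0.53 and 0.66 with DCMU (log2 fold change of -0.52, adjusted p = 0.0952).

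For 26 of the 43 genes the groups overlapped. The 5 genes with the log2 fold change nearest 0 were AT4G25290 at -0.0015, AT4G34310 at -0.01, AT2G19280 at -0.03, AT1G21660 at -0.03 and AT5G11550 at 0.03. AT4G34310, for a protein of the alpha/beta-hydrolase type, stood at 0.64, 0.61 and 0.55 in PSI light and at 0.56, 0.50 and 0.72 with DCMU, and its 95% interval was -0.19 to 0.18. AT2G19280, for a pentatricopeptide repeat protein, stood at 1.29, 1.34 and 1.28 in PSI light and at 1.21, 1.24 and 1.39 with DCMU, with an interval of -0.19 to 0.14. Both reversed sign after the position correction, to 0.32 for AT4G34310 (adjusted p = 0.0557) and to 0.41 for AT2G19280 (adjusted p = 0.0187). In 1 of the 19 alternatives AT4G34310 passed limma's test (adjusted p = 0.0294). Its log2 fold change ran from -0.30 to 0.32 over these alternatives.

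AT1G21660, for a protein with a DnaJ domain, the domain of co-chaperones, stood at 2.01, 1.67 and 2.19 in PSI light and at 1.80, 1.76 and 2.23 with DCMU. AT4G25290, for a protein of the photolyase type, stood at 0.66, 0.96 and 0.43 in PSI light and at 1.02, 0.76 and 0.26 with DCMU. AT5G11550, for a protein with ARM repeats, stood at 0.96, 0.45 and 0.61 in PSI light and at 0.59, 0.67 and 0.85 with DCMU. Their groups overlapped throughout, and the intervals were -0.55 to 0.49, -0.64 to 0.64 and -0.37 to 0.44.

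**Figure D4:**
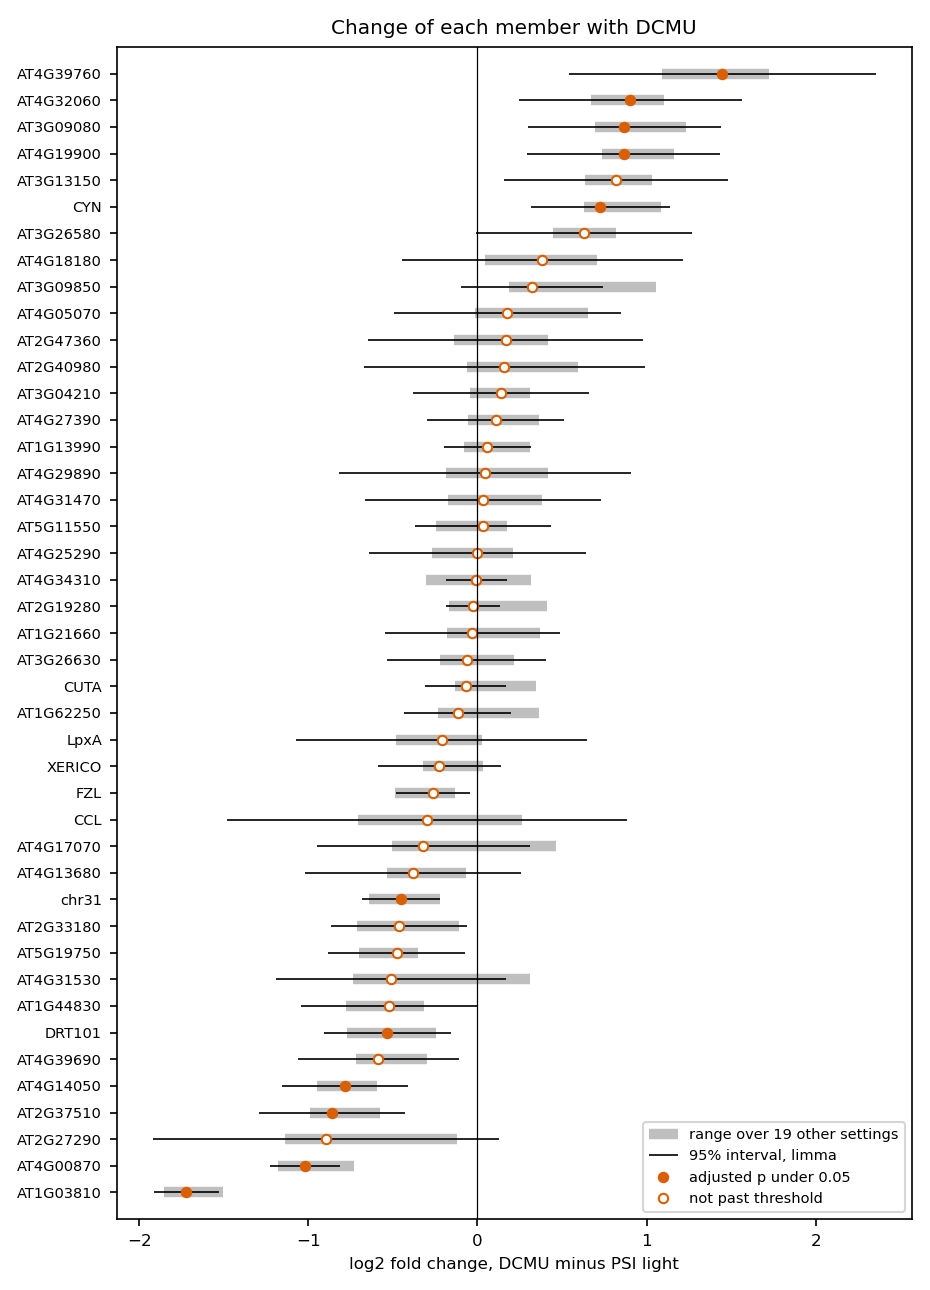
Log2 fold change with DCMU (x axis) of each of the 43 genes (y axis), with limma's 95% interval as a thin line and the range over the 19 other settings as a grey bar. Filled points passed an adjusted p of 0.05, from AT4G39760 at 1.45 down to AT1G03810 at -1.72.

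The 4 pentatricopeptide repeat genes did not share a direction of log2 fold change, with AT4G14050 at -0.78, AT3G26630 at -0.06, AT2G19280 at -0.03 and AT3G13150 at 0.82. Only AT4G14050 among them passed, although AT3G13150 passed as higher in 10 of the 19 alternatives. LpxA, for an acyltransferase that starts lipid A-like synthesis and is best known from bacteria, had PSI light values of 1.52, 0.90 and 1.67 and a log2 fold change of -0.21, which did not pass. Nor did AT4G29890, of the choline monooxygenase type, at 0.04, or AT4G18180, of the pectin lyase type, at 0.38. The low value of AT4G18180 in PSI light columns 5 and 6, at -0.15 against 0.85 and 0.90, widened its spread. After the position correction AT4G18180 passed at 0.71 (adjusted p = 0.0458).

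XERICO, a RING-type protein that raises abscisic acid levels when overexpressed, stood at 1.72, 1.96 and 1.59 in PSI light and 1.63, 1.64 and 1.31 with DCMU (log2 -0.23, adjusted p = 0.263). AT3G04210, for a TIR-type resistance protein without the leucine-rich repeats, had a log2 fold change of 0.14, AT2G40980, for a protein of the kinase type, of 0.16, and AT4G05070, of the wound-responsive type, of 0.18. None of these passed, but AT4G05070 was at 0.66 after the position correction (adjusted p = 0.0367). In AT2G40980 and AT4G05070 the highest value of each group came from columns 5 and 6, at 1.89 and 1.96 for AT2G40980 and at 1.33 and 1.36 for AT4G05070. Mean log2 levels in PSI light were 1.70 for AT3G26630, 1.08 for AT4G29890 and 0.91 for AT3G04210. The remaining genes had mean log2 levels in PSI light of 1.56 for AT4G27390, 1.33 for AT1G13990, 1.41 for AT4G13680, 0.85 for AT3G26580 and 0.52 for AT2G47360. Their log2 fold changes were 0.11, 0.06, -0.38, 0.63 and 0.17, and none passed. AT3G26580 passed as higher in 4 of the 19 alternatives, and the others passed in none.

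At the edge of the rule, the genes just inside were AT1G44830 (median ranks of 91.7% in PSI light and 88.0% with DCMU), AT5G19750 (93.2% and 88.5%), AT4G34310 (88.9% and 88.6%) and AT5G11550 (88.7% and 89.6%). Those just outside were AT2G44760 (87.9% and 90.0%), AT2G22890 (96.2% and 87.6%), AT1G17160 (90.9% and 87.2%), and AT1G50390 (87.3% and 87.1%). AT2G22890 had a log2 fold change of -1.42, from 1.79 ± 0.46 to 0.37 ± 0.27 (SD, n = 3). The other 3 had mean log2 levels in PSI light and with DCMU of 0.54 and 0.79 for AT2G44760, 0.88 and 0.47 for AT1G17160, and 0.53 and 0.45 for AT1G50390.

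The spread of these bright genes lay mostly between duplicate pairs and not within them. The median absolute difference between the 2 columns of a duplicate pair was 0.08 on the log2 scale for the 43 genes, 0.10 for the other bright probes and 0.14 for all probes. The median SD over the 3 duplicate means, pooled over the groups, was 0.27, 0.25 and 0.23 in the same order. None of the 43 genes was at the floor set for dim probes in any column, against 571 of all probes with at least 1 such column. On these normalised values bright probes differed less within a pair than the average probe, while their SD between pairs was not smaller. Both measures depend on the processing. Normalisation left a difference within pairs of 0.0 for AT3G09850, whose deposited values in PSI light columns 3 and 4 were 43.8 and 36.9. Values at the floor are all alike, which lowers the spread over all probes.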

How the data were processed

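Total RNA of 12 samples was measured on arrays, with 1 value per probe and sample. The authors deposited relative intensity values for 3439 probes, scaled to 100 at each column's brightest probe. The sources used here do not state background correction, image analysis or a genome build. Ranks were taken within columns as deposited. For tests, values were quantile normalised, raised to at least the 5th percentile of positive values (0.110), turned to log2, averaged over duplicate columns and fitted with limma 3.58.1 (R 4.3.3) over all probes, DCMU minus PSI light, with Benjamini-Hochberg adjustment at 0.05 and 95% intervals. The fit was tested on simulated data.

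In the probe annotation 692 probes had 1 gene, 870 had several and 1877 had none. Symbols came from RefSeq TAIR10.1, which held 690 of the 692. Duplicate means (deposited values for the 3 brightest genes, group means just outside the threshold) are given for the 10 brightest genes, those past the threshold (up to 6 per direction), the 5 nearest 0 and 4 on each side of the rank threshold. Others beyond the rule (AT3G13150, AT4G39690, FZL, XERICO and some single values) were picked after their values were seen. Members and lists were chosen with earlier results of these data known. Planned classes by gene description and promoter and protein sequences were not used here, since the tables at hand hold no such text or sequence. The roles given are background knowledge.

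Same-numbered duplicate means of the groups deviated together at correlations of 0.0989 to 0.306, all above 0 and below 0.1 for 1 of 3. For single columns the correlations across groups were 0.0954 to 0.303 at the same column number. They were -0.251 to 0.238 at different column numbers, which include columns of the same duplicate pair number. Deviations were taken from the group mean and so sum to 0 within a group. The labels do not state a pairing, and the main fit treated replicate numbers as names, not as pairs. These correlations do not settle whether the groups were paired, and fits with the replicate number as a block are given among the alternatives. Alternatives covered scaling, floor, filter, duplicates, block, variance model, position in the order of probe numbers (running median over 101 probes) and leaving out each duplicate pair. Arrays have no read depth, and their number limits the precision. Figures were drawn with matplotlib 3.10.9.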

Additional observations from a re-analysis of the deposited data

Results flagged for a closer look

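The 6 columns of each group were searched, gene by gene, for 1 column standing well away from the remaining 5, which gives 86 groups for the 43 genes, and 1 was picked out. About 1 in 20 such groups would be picked out by chance if columns were independent, but here they are duplicates, so that share does not hold and a duplicate pair that stands apart is missed. AT1G62250 in PSI light stood at 3.20 log2 relative intensity in column 6, against 3.60 to 3.79 in the other 5 columns, with a gap over range of 0.670. Its duplicate mean for columns 5 and 6 was 3.49.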

How the results depend on the processing

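AT1G03810, AT4G00870 and AT2G37510 passed in all 19 alternatives. The other 8 genes past the threshold lost it in at least 1, and none of the 11 changed sign. Of the 43 genes, 11 passed (5 higher with DCMU, 6 lower). No scaling gave 11 lower, median centring 8 higher and 4 lower, and the position correction 9 higher. All 12 columns taken as samples gave 21 (8 higher, 13 lower), and the duplicates as a random block 19 (7 higher, 12 lower). Calls over all 3439 probes went from 1483 to 2109 and 1754 in these settings. With the replicate number as a block, 10 passed over duplicate means (4 higher, 6 lower; AT4G39760 at 0.0709 and DRT101 at 0.0681 lost the call, and AT4G31530 at log2 -0.51 and 0.0264 gained one) and 24 over 12 columns (9 higher, 15 lower). These blocks called 1394 and 2224 of all probes. Leaving out 1 duplicate pair gave 5 to 9 (0 to 3 higher, 4 to 7 lower), and 40 to 46 genes under the rank rule.

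The following genes, none past the threshold after quantile normalisation, had the opposite sign of log2 fold change, and the cause was not tested. Equal totals gave AT4G31530 0.0498, AT4G17070 0.21, CCL 0.0031, AT1G62250 0.0297, CUTA 0.0852, AT1G21660 0.045, AT4G29890 -0.0841, AT2G47360 -0.0226 and AT5G11550 -0.16. Median centring gave AT4G31530 0.31, AT4G17070 0.47 (adjusted p = 0.032), CCL 0.26, AT1G62250 0.29, CUTA 0.34, AT1G21660 0.30, AT3G26630 0.22, XERICO 0.032, AT2G19280 0.18, AT4G25290 0.0842 and AT4G34310 0.0502. No scaling gave AT4G17070 0.11, AT1G13990 -0.0787, AT3G04210 -0.0462, AT4G29890 -0.18, AT4G05070 -0.0155, AT2G47360 -0.11 and AT5G11550 -0.25. Cyclic loess gave AT1G21660 0.13, AT3G26630 0.0975, AT2G19280 0.12, AT4G25290 0.0977 and AT4G34310 0.0748. The position correction gave AT1G62250 0.36, CUTA 0.16, AT1G21660 0.37, AT2G19280 0.41, LpxA 0.0262, AT4G25290 0.0027, AT5G11550 -0.0776 and AT4G34310 0.32. Leaving out 1 duplicate pair gave ranges of -0.71 to 0.14 for CCL, -0.17 to 0.19 for AT4G31470, -0.18 to 0.088 for AT1G21660, -0.22 to 0.0968 for AT3G26630, -0.0564 to 0.20 for AT4G27390, -0.0152 to 0.16 for AT1G13990, -0.0822 to 0.0095 for AT2G19280, -0.061 to 0.42 for AT2G40980, -0.18 to 0.34 for AT4G29890, -0.17 to 0.21 for AT4G25290, -0.14 to 0.33 for AT2G47360, -0.0758 to 0.18 for AT5G11550 and -0.0677 to 0.0384 for AT4G34310. Signal over background is not given in the values, so what dim signal limits could not be measured.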
